A study of Homo sapiens with 11 samples.

Results

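The 10 genes described here restrain mechanistic target of rapamycin complex 1 (mTORC1), the kinase complex that couples protein synthesis and cell growth to nutrients and growth factors. They were chosen by name as known negative regulators: DDIT4, SESN1, SESN2, SESN3, TSC1, TSC2, DEPTOR, CASTOR1, NPRL2 and DEPDC5. All 10 were among the 14458 genes listed in the knockdown table and among the 11062 listed in the overexpression table, with CASTOR1 under its older symbol GATSL3. All 10 passed the filter on low values in both tables, and none was listed at 0 in any library. DDIT4 and SESN2 were already known to be among the largest rises after knockdown when the list was put together, so their knockdown values are given as a description.

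The study asked how the level of PHF19, an accessory subunit of Polycomb repressive complex 2, bears on the transcriptome of myeloma cells. RNA was sequenced from ARP1, an established human myeloma line that secretes IgA kappa. In the knockdown table, 3 libraries with an shRNA against PHF19 stood against 3 scramble libraries. In the overexpression table, 2 libraries of ARP1 cells carrying PHF19 on a PCDH lentiviral plasmid stood against 3 empty vector libraries. The virus was packaged in HEK293T cells, and the overexpressing cells were sorted. Whether the empty vector cells were sorted, how the shRNA was delivered and which hairpin was used is stated in none of the sources used here. Scramble and shRNA libraries carry a genotype tag that names PHF19 overexpression, so their groups were taken from their titles. All libraries come from this single line, and nothing says whether replicates were separate cultures, so p-values measure the spread between these libraries, which may be technical.

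Amino acid shortage, energy stress and loss of growth factor input reach mTORC1 by separate routes. Growth factor and energy signals converge on the TSC complex, which switches off the small GTPase RHEB, the direct activator of mTORC1 at the lysosome. Amino acid signals act through the Rag GTPases, which GATOR1 inactivates and GATOR2 protects. Sestrins and CASTOR1 sense leucine and arginine and hold GATOR2 in check when these are scarce, DDIT4 (REDD1) acts upstream of TSC, and DEPTOR binds mTOR itself. Plasma cells and their tumours make large amounts of immunoglobulin and so depend on this balance between growth and stress responses. DDIT4 and SESN2 are also known targets of ATF4, which drives the integrated stress response.

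The promoters of the members whose level moved most after knockdown are shown with that of TSC2, the only member whose window held the ATF4-type motif searched. Windows from RefSeq on GRCh38.p14 were found for 9 of the 10 genes. DEPTOR had none and was not searched, and SESN1, TSC2 and DEPDC5 had multiple windows. Each sequence below is the 250 bases before the start site, on the strand of the gene. Capitals mark CCAAT boxes (here on the opposite strand), an ACGTG in DDIT4, and in TSC2 the E-box with the ATF4-type motif that it runs into.
SESN2, chr1:28259268-28259517, plus strand: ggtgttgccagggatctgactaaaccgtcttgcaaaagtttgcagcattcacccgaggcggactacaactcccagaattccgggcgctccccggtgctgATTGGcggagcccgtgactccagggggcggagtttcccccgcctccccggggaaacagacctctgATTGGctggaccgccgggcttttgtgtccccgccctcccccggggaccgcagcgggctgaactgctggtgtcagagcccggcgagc
DDIT4, chr10:72273674-72273923, plus strand: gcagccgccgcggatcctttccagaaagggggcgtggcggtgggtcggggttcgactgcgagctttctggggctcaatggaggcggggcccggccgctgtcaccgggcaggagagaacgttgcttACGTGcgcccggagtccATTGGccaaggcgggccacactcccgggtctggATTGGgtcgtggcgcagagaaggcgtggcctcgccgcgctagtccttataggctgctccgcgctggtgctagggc
TSC2, chr16:2047735-2047984, plus strand: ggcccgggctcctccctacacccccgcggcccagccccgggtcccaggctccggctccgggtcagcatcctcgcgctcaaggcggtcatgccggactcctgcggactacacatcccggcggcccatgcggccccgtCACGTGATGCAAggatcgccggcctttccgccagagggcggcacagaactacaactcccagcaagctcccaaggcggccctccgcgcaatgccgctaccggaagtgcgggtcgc
G and C made up 65.6% of the SESN2 sequence, 68.8% of that of DDIT4 and 71.6% of that of TSC2.

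TGATGNAA, the core of the element bound by ATF4 dimers, was searched on both strands in the 250 bases before each start. It lay at -110 in TSC2 and in no other member's window, against 3.14% of all 35116 windows. The E-box CACGTG lay at -114 in TSC2, overlapping that element, and in 6.34% of all windows. TGACGTCA, the cyclic AMP response element, was in no member's window and in 1.65% of all. GTAAACA, the FOXO motif, was in none either and in 2.98% of all. CCAAT and ACGTG were added after the windows had been read. CCAAT was found for 5 of the 9 members with a window, and 32.0% of all windows held it. It lay at -151 and -86 in SESN2 and at -108 and -75 in DDIT4. It also lay once in NPRL2 (-13), once in CASTOR1 (-191) and once in each of 2 separate windows of SESN1 (-90 and -75), none of them called after knockdown. A window with 2 or more copies, as in SESN2 and DDIT4, made up 9.53% of all windows. ACGTG lay at -125 in DDIT4 and within the E-box of TSC2, against 18.5% of all windows. The counts are of members, some with multiple windows, while the percentages are of windows, so they are not on the same basis. These matches describe letters only, and no binding was measured.

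Values in both tables are abundances per transcript length and library size, referred to here as FPKM-type units because the headers name no unit. Their sums per library ran from 470294 to 526068 in the knockdown table, from 425155 to 426112 in empty vector and from 498485 to 502349 in overexpression. The files give no read counts, so the depth is unknown. PHF19 itself stood at 113, 152 and 123 units in scramble, against 75.2, 103 and 108 in the shRNA libraries. The shRNA libraries were all lower, and the change missed the threshold (log2 fold change -0.44, SE 0.17, limma adjusted p = 0.147, or 0.0445 with the replicate number as a block). In the other table PHF19 stood at 111, 119 and 115 in empty vector and at 227 and 213 in overexpression (log2 fold change 0.93, SE 0.094, limma adjusted p = 0.0438). That call held in only 2 of the 8 alternatives of the fit (limma adjusted p 0.0434 to 0.166). It held without empty vector 5 (0.0381) and was lost without empty vector 3 (0.156) or 4 (0.178). The log2 fold change ran from 0.88 to 0.97 without each library in turn. All 9 plasma cell markers were listed in both tables. Their summed level was 1259 to 1381 in scramble and 727 to 1219 in shRNA, and 868 to 1859 in empty vector and 1717 to 1763 in overexpression. MZB1 and TNFRSF17 were listed at 0 in empty vector 3 and 4. Of 10 markers of other cells, 9 were listed in the knockdown table, with VIM by far the most abundant at 391 to 1355 over all libraries of both tables. In the knockdown table CD3E, CD14, CSF1R, MS4A1 and COL1A1 stayed below 1, the myeloid marker LYZ ran from 0.56 to 1.71 and the B cell marker PAX5 from 1.64 to 2.66. HBA1, a haemoglobin gene, stood at 4.5 to 5.65 in scramble and at 0 to 2.24 in shRNA, listed at 0 in 2 libraries, and was called lower (limma adjusted p = 0.0292). Of the 10 markers 4 were listed in the overexpression table, with LYZ up to 6.17, PAX5 up to 2.09 and COL1A1 up to 2.57. The summed level of these other markers was 705 to 1275 in scramble, 1016 to 1359 in shRNA, 394 to 722 in empty vector and 847 to 912 in overexpression, and the part of either marker list in the results was not tested. In bulk RNA, fewer cells of a type and less RNA per cell cannot be told apart.

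After PHF19 knockdown, the stress-induced brakes DDIT4 and SESN2 stood several-fold above scramble, and DEPTOR rose by a smaller amount. TSC2 was higher in all shRNA libraries and narrowly missed the threshold. The other 6 members, which include the remaining sestrins and the GATOR1 subunits NPRL2 and DEPDC5, did not pass. In the fit, 3 of 10 members were called, all higher, where 5.51% of the 10900 genes tested were called, 4.24% higher and 1.28% lower. Since this contrast was known when the list was put together, nothing is read from that count. It was 0 without shRNA 2, 1 without shRNA 1, shRNA 3, scramble 2 or scramble 3, and 2 without scramble 1. Over all genes the calls were 462 higher and 139 lower, a split that became 377 and 206 after quantile normalisation. The median log2 fold change was 0.31 over the members and 0.03 over all genes tested. The authors' deposited table gave a p below 0.05 for 9 of the 10 members, all but DEPDC5, where 61.2% of all listed genes had one.

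**Figure D1:**
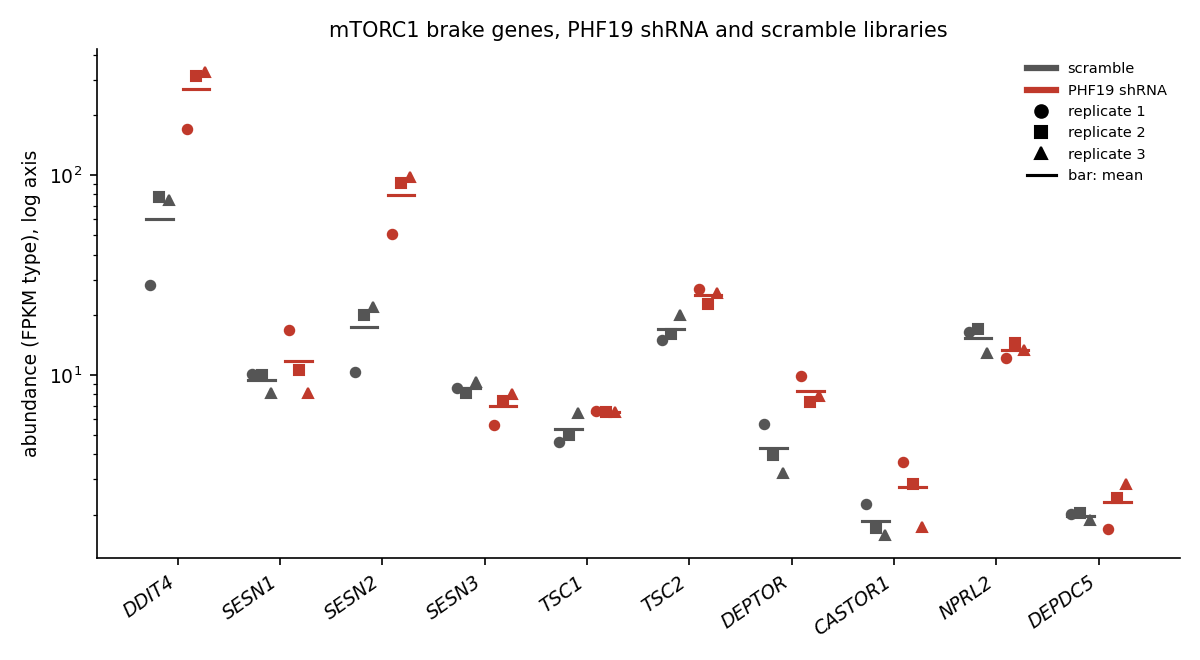
Abundance of the 10 members (FPKM-type units, log axis) in each scramble and PHF19 shRNA library, with 1 point per library. The 3 shRNA points of DDIT4 (171 to 326) and SESN2 (50.4 to 98.0) lie above all scramble points, while those of NPRL2, SESN1, CASTOR1 and DEPDC5 overlap them.

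DDIT4, induced by hypoxia, glucocorticoids and endoplasmic reticulum stress, was the most abundant member in every group. It stood at 28.2, 77.4 and 75.1 units in scramble 1, 2 and 3 and at 171, 313 and 326 in shRNA 1, 2 and 3. The groups did not overlap, and the library numbered 1 was the lowest of its group in both. Its log2 fold change was 2.22 (SE 0.44), and the ratios of shRNA to scramble libraries of the same number were 6.04, 4.04 and 4.34. Without each library in turn the log2 fold change ran from 1.75 to 2.52, and DDIT4 was called by limma only when scramble 1 was the library left out.

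SESN2, the sestrin induced by amino acid and endoplasmic reticulum stress, stood at 10.3, 19.9 and 21.9 units in scramble, against 50.4, 91.0 and 98.0 in the shRNA libraries. As with DDIT4, number 1 was lowest on both sides and all shRNA libraries lay above all scramble libraries. The log2 fold change was 2.14 (SE 0.31, 1.83 to 2.44 without each library in turn), and the call was lost without shRNA 2. The ratios by number were 4.88, 4.57 and 4.47, closer to each other than those of DDIT4.

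Neither of the other sestrins was called. SESN1, known as a p53 target, stood at 10.1, 9.99 and 8.12 units in scramble, against 16.8, 10.6 and 8.08 in the shRNA libraries. Only shRNA 1 was clearly high, and the log2 fold change of 0.25 (limma adjusted p = 0.532) was -0.013 without that library. SESN3, known as a FOXO target, stood at 8.59, 8.09 and 9.21 in scramble, against 5.59, 7.41 and 8.06 in the shRNA libraries. Each shRNA library was lower than each scramble library, narrowly, and the change was not called (log2 fold change -0.28, limma adjusted p = 0.319).

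The make-up of the sestrin pool was described by the share of SESN2 in each library. SESN2 was 35.7%, 52.4% and 55.9% of the summed abundance of the 3 sestrins in scramble (mean 48.0% ± 10.8, SD, n = 3). It was 69.3%, 83.5% and 85.9% in shRNA libraries (79.6% ± 8.96, SD, n = 3). The difference of 31.6 percentage points ran from 25.4 to 36.7 without each library in turn, and no test is given because SESN2 was chosen with this contrast known. The summed sestrin level was 29.0, 38.0 and 39.3 units in scramble and 72.8, 109 and 114 in shRNA. SESN3 made up 21.3% to 29.6% of it in scramble and 6.80% to 7.68% in shRNA.

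**Figure D2:**
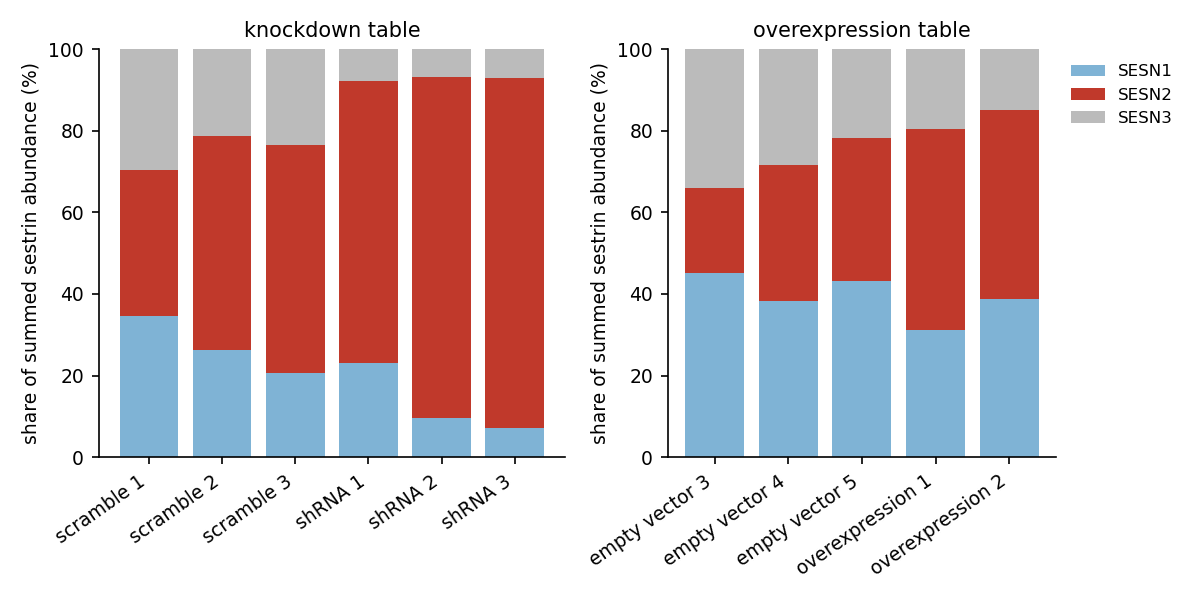
Share of SESN1, SESN2 and SESN3 in the summed sestrin abundance (percent), with 1 stacked bar per library in all 4 groups. SESN2 takes 35.7% to 55.9% in scramble and 69.3% to 85.9% in shRNA libraries, and 20.9% to 35.1% in empty vector and 46.5% to 49.5% in overexpression libraries.

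TSC2, the GTPase-activating subunit of the TSC complex, stood at 15.0, 16.1 and 19.9 units in scramble, against 26.9, 22.6 and 25.6 in the shRNA libraries. The groups did not overlap, with ratios by number of 1.80, 1.41 and 1.29. Its log2 fold change was 0.54 (SE 0.14, limma adjusted p = 0.0541, or 0.0267 with the replicate block). Over all alternatives the adjusted p ran from 0.0267 to 0.183. TSC1, which stabilises TSC2, stood at 4.62, 5.02 and 6.44 in scramble, against 6.63, 6.52 and 6.51 in the shRNA libraries. The shRNA libraries all lay just above scramble 3 (log2 fold change 0.26, limma adjusted p = 0.333). TBC1D7, the small subunit of the complex, had means of 17.7 ± 1.03 in scramble and 24.0 ± 1.98 in shRNA (SD, n = 3 each). Its log2 fold change was 0.41, with a limma adjusted p of 0.0809, or 0.0443 with the replicate block. In RefSeq TSC2 overlaps PKD1, whose log2 fold change was 0.84 (limma adjusted p = 0.0746), and SESN1 overlaps ARMC2, at -0.33 (0.371). Whether counting used strand is not given, so reads of overlapping genes may be shared.

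DEPTOR, which binds mTOR and is known for its high level in a subset of myelomas, stood at 5.71, 3.97 and 3.22 units in scramble, against 9.91, 7.30 and 7.80 in the shRNA libraries. All shRNA libraries lay above all scramble libraries, and the ratios by number were 1.74, 1.84 and 2.42. DEPTOR rose, with a change of 0.83 on the log2 scale (SE 0.20, limma adjusted p = 0.0400, or 0.00947 with the replicate block). The call was lost without any single library (adjusted p 0.0516 to 0.147), after quantile normalisation (0.0976), after median-of-ratios scaling (0.0613) and with no filter on low values (0.0729).

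CASTOR1 and the GATOR1 subunits, on the amino acid branch, were not called. CASTOR1, the arginine sensor, stood at 2.26, 1.72 and 1.58 units in scramble, against 3.68, 2.85 and 1.73 in the shRNA libraries (log2 fold change 0.37, limma adjusted p = 0.319). NPRL2, a GATOR1 subunit, stood at 16.4, 16.9 and 12.8 in scramble, against 12.2, 14.4 and 13.3 in the shRNA libraries (log2 fold change -0.19, limma adjusted p = 0.462). DEPDC5, the GATOR1 subunit that contacts the Rag GTPases, stood at 2.01, 2.03 and 1.87 in scramble, against 1.70, 2.41 and 2.84 in the shRNA libraries (log2 fold change 0.14, limma adjusted p = 0.643). In all 3 the groups overlapped. Over the whole list the groups did not overlap for 6 of 10 members (DDIT4, SESN2, SESN3, TSC1, TSC2 and DEPTOR), where 32.0% of all genes tested did not overlap. All but SESN3 were higher, where 18.9% of all genes were higher without overlap. This contrast was known when the list was put together, so nothing is read from these counts either.

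**Figure D3:**
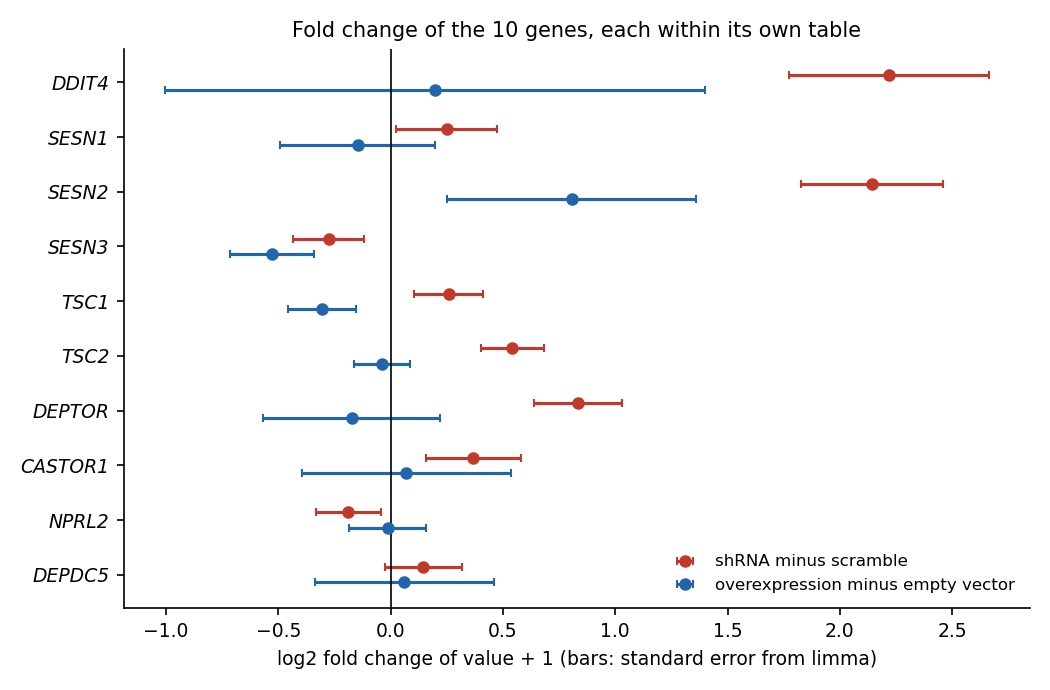
Log2 fold change of each member, on the log2(value + 1) scale, for shRNA minus scramble and for overexpression minus empty vector, with error bars of 1 SE of the limma fit. DDIT4 (2.22) and SESN2 (2.14) stand apart after knockdown, and the widest error bar is that of DDIT4 in the overexpression comparison (SE 1.20).

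The order of levels within a group also moved. In scramble, by median, DDIT4 led, and the ranges of SESN2, NPRL2 and TSC2 overlapped from each to the next below it. SESN1 and SESN3 followed with overlapping ranges, then TSC1 and DEPTOR, and last DEPDC5 and CASTOR1, again overlapping within each pair. In shRNA libraries DDIT4, SESN2 and TSC2 took the first places with no overlap to the next gene. Behind them the ranges of NPRL2, SESN1, DEPTOR, SESN3 and TSC1 overlapped from each to the next, and CASTOR1 and DEPDC5 stayed last. DEPTOR thus moved from below TSC1 to above SESN3 by median, within overlapping ranges.

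The genes with a pattern most like DDIT4 and SESN2 over the 6 knockdown libraries were ranked by the root mean square difference of log2 values centred on each gene's mean, among 8198 genes. For DDIT4 the closest was SESN2 (difference 0.164), followed by PIP5KL1 (0.188) and PCK2 (0.191), the mitochondrial form of phosphoenolpyruvate carboxykinase. For SESN2 the closest was CTH (0.0975), which makes cysteine from cystathionine, followed by PCK2 (0.128) and DDIT4 (0.164). CTH stood at 2.99, 5.74 and 7.54 units in scramble, against 14.8, 30.6 and 30.2 in the shRNA libraries. These genes share with DDIT4 and SESN2 the same libraries and a low value in number 1 of both groups. Centring over all 6 libraries keeps the step from scramble to shRNA, so genes with a rise of similar size rank close. DDIT4 and SESN2 were listed with their rise known, so nothing is read from their closeness to each other.

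Outside the 10 brakes, the other genes of the mTORC1 pathway were counted in the same fit. Of 70 further genes listed for mTOR complexes, Rag GTPases and Ragulator, other GATOR and sensor genes, AMPK, growth factor input and mTORC1 substrates, 65 were tested. EIF4EBP1 was the 1 gene called, where 5.51% of all genes tested were, and 7 had an unadjusted p below 0.05, where 24.1% of all genes had one. EIF4EBP1, the translation repressor 4E-BP1 that mTORC1 inactivates, rose from 224 ± 34.6 to 389 ± 62.4 units (SD, n = 3 each, log2 fold change 0.79, limma adjusted p = 0.0275). With no filter on low values no pathway gene was called, and with the replicate block 5 were (EIF4EBP1, TBC1D7, INSR, AKT1 and TFEB), where the block called 11.9% of all genes. Without each library in turn the count ran from 0 to 2, at 0 without scramble 1, 2 or 3 or shRNA 2 or 3, and at 2 without shRNA 1.

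Among the genes listed for the mTOR complexes, which include TTI1, TTI2 and TELO2 beside the subunits, 0 of 10 were called, with a median log2 fold change of -0.04. MTOR had means of 13.5 in scramble and 14.8 in shRNA (limma adjusted p = 0.618), and its partner RPTOR an adjusted p of 0.373. RHEB, the activator that TSC2 switches off, had means of 46.8 and 48.7 (limma adjusted p = 0.782), and 0 of the 14 genes of its list were called. Of the other GATOR, KICSTOR and sensor genes 0 of 13 were called, and CASTOR2, the relative of CASTOR1, had means of 4.82 in scramble and 3.48 in shRNA (log2 fold change -0.37, limma adjusted p = 0.150). None of 8 AMPK genes and none of 10 growth factor genes was called, with INSR, the insulin receptor, nearest at an adjusted p of 0.0642. TFEB, the lysosomal transcription factor held in the cytoplasm by mTORC1, had a log2 fold change of 0.46 (limma adjusted p = 0.0826).

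Of the transcription factor branches known to act on DDIT4 and the sestrins, the ATF4 branch was called in 8 of the 9 genes tested, all higher. Over all genes tested 5.51% were called and 4.24% were called higher, a share that also stands beside the p53 and FOXO counts below. The rise of the ATF4 branch in these libraries was known when the list was put together, so it is not independent evidence of a direction. Whether ATF4 acted on DDIT4 or SESN2 here was not tested. ATF4 rose from 304 ± 25.2 to 514 ± 47.5 units (SD, n = 3 each, log2 fold change 0.76, limma adjusted p = 0.0178). CHAC1, which degrades glutathione, rose by a log2 fold change of 2.77 (0.00136), DDIT3, the stress factor CHOP, by 1.41 (0.00675), CEBPB by 1.33 (0.0113) and TRIB3, an inhibitor of AKT, by 1.70 (0.0175), with limma adjusted p in brackets. Of 10 tested p53 targets 0 were called and 2 had an unadjusted p below 0.05, where 24.1% of all genes had one. FDXR was nearest (log2 fold change 0.54, limma adjusted p = 0.0575). AEN was lower (-0.46, limma adjusted p = 0.148), and CDKN1A had a limma adjusted p of 0.218. Of 11 tested FOXO factors and targets 0 were called and 3 had an unadjusted p below 0.05, against the same 24.1%, with INSR nearest. The library numbered 1 was the lowest of scramble in 7 of the 9 ATF4 branch genes and the lowest of shRNA in 8 of 9. It was the lowest for 49.4% and 51.1% of all genes with no 0.

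With PHF19 overexpressed, no member was called, and the empty vector libraries themselves differed widely for the same stress-induced brakes. In the fit 0 of 10 members passed, where 0.914% of the 10279 genes tested did, 0.613% higher and 0.302% lower. SESN3 was the only member with an unadjusted p below 0.05, against 11.5% of all genes, and no alternative called a member. The groups did not overlap for 3 of 10 members (SESN2, SESN3 and TSC1), against 34.2% of all genes. Of these SESN2 was the higher one, where 23.1% of all genes were higher without overlap. The median log2 fold change was -0.03 over the members and 0.09 over all genes tested. In the authors' deposited table SESN3 (p = 0.00215) and TSC1 (p = 0.0327) were below 0.05, that is 2 of 10 members against 12.9% of all listed genes.

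DDIT4 stood at 35.5, 154 and 494 units in empty vector 3, 4 and 5 and at 154 and 167 in overexpression libraries. The overexpression libraries lay within the range of the controls, and the log2 fold change was 0.20 (SE 1.20, limma adjusted p = 0.957). It was -0.78 without empty vector 3 and 1.10 without empty vector 5, and neither was called. On the untransformed scale the mean was 228 in empty vector and 161 in overexpression, the opposite order to the log scale. SESN2 stood at 8.04, 20.8 and 28.1 units in empty vector and at 29.2 and 31.4 in overexpression. Both overexpression libraries lay above empty vector 5 by a narrow margin (log2 fold change 0.81, SE 0.56, limma adjusted p = 0.616).

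SESN3 stood at 13.0, 17.8 and 17.3 units in empty vector and at 11.5 and 9.98 in overexpression libraries. Both overexpression libraries were lower than all controls (log2 fold change -0.53, SE 0.19, limma adjusted p = 0.415). SESN1 stood at 17.3, 24.0 and 34.5 in empty vector and at 18.3 and 26.1 in overexpression (log2 fold change -0.15, limma adjusted p = 0.905). The SESN2 share of the sestrin pool was 20.9%, 33.3% and 35.1% in empty vector (29.8% ± 7.71, SD, n = 3) and 49.5% and 46.5% in overexpression (48.0% ± 2.07, SD, n = 2). The difference of 18.2 percentage points gave p = 0.1 in a two-sided exact permutation test, the smallest that 10 splits allow, and ran from 13.8 to 20.9 without each library in turn.

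TSC1 stood at 5.87, 6.43 and 5.19 units in empty vector and at 4.73 and 4.30 in overexpression (log2 fold change -0.31, limma adjusted p = 0.524). TSC2 stood at 14.7, 16.5 and 14.5 in empty vector and at 14.0 and 15.6 in overexpression (log2 fold change -0.04, limma adjusted p = 0.926). TSC1 did not overlap between groups and TSC2 did. DEPTOR stood at 12.3, 9.07 and 22.1 in empty vector and at 12.6 and 11.3 in overexpression (log2 fold change -0.17, limma adjusted p = 0.901), with empty vector 5 the highest.

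CASTOR1 stood at 1.62, 2.14 and 5.63 units in empty vector and at 2.68 and 3.31 in overexpression (log2 fold change 0.07, limma adjusted p = 0.961). NPRL2 stood at 17.1, 12.4 and 13.7 in empty vector and at 13.8 and 14.5 in overexpression (log2 fold change -0.01, limma adjusted p = 0.982). DEPDC5 stood at 5.57, 2.56 and 2.22 in empty vector and at 4.19 and 2.73 in overexpression (log2 fold change 0.06, limma adjusted p = 0.960). For all 3 the overexpression libraries lay within the range of the controls. The sign of the fold change of DDIT4, SESN1, TSC2, DEPTOR, CASTOR1, NPRL2 and DEPDC5 turned when some single library was left out, so no direction is given for them.

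**Figure D4:**
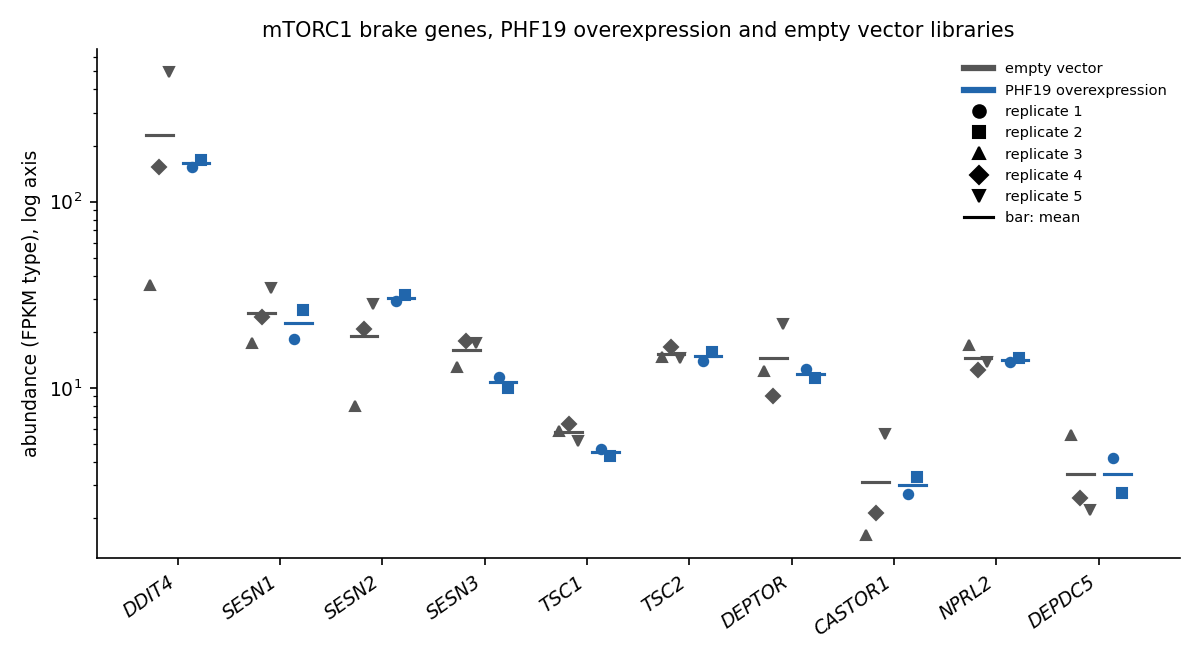
Abundance of the 10 members (FPKM-type units, log axis) in each empty vector and PHF19 overexpression library, with 1 point per library. DDIT4 spans 35.5 to 494 in empty vector, and both overexpression points (154 and 167) fall inside that span.

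The spread of DDIT4 among the 3 empty vector libraries was 3.76 on the log2(value + 1) scale. This was the 3rd widest of the 8665 genes with no 0 in the table, whose median was 0.44. Among all 10279 genes tested, which include genes listed at 0 in some library, it took place 639. SESN2 spanned 1.69 (place 166 of the genes with no 0 and 1267 of all tested), CASTOR1 1.34, DEPTOR 1.20, DEPDC5 1.03 and SESN1 0.95, while TSC2 spanned 0.17. In the 2 overexpression libraries DDIT4 spanned 0.12 and SESN2 0.10, where the median of the genes with no 0 was 0.13. A range over 2 libraries is not comparable with a range over 3. In scramble DDIT4 spanned 1.42, place 38 of the 10874 genes with no 0 and 52 of all 10900 tested. SESN2 spanned 1.02 there, places 184 and 201, against a median of 0.32. Both stress-induced brakes thus varied more than most genes within the control groups of both tables.

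**Figure D5:**
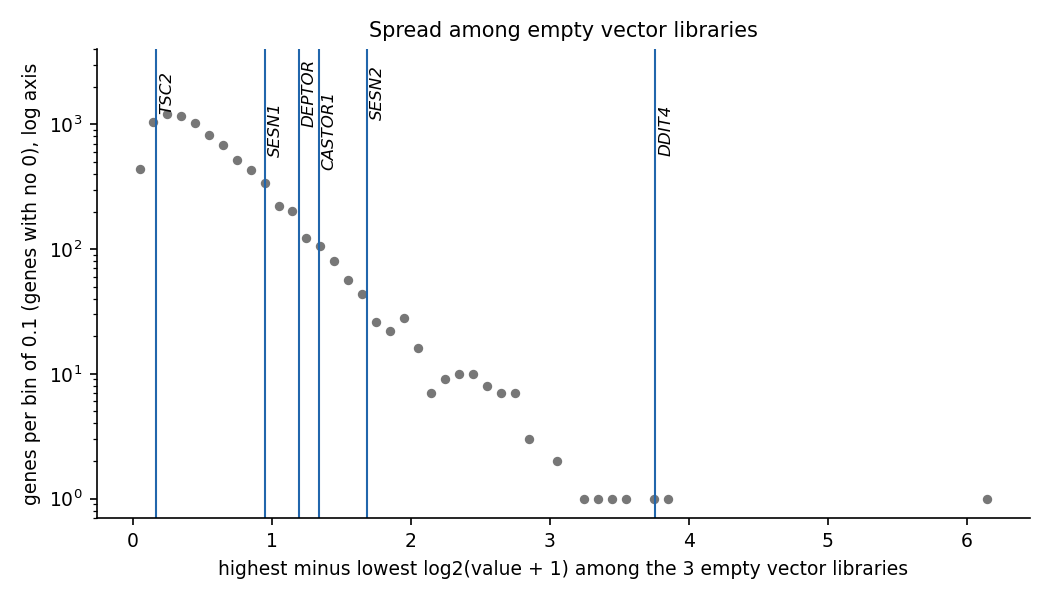
Number of genes (log axis) by the range of log2(value + 1) among the 3 empty vector libraries, for the 8665 genes with no 0, with vertical lines at 6 members. DDIT4 (3.76) lies in the far right tail and TSC2 (0.17) near the left edge.

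The ATF4 branch varied in the same libraries. All 8 of its genes tested were lowest in empty vector 3, where 35.5% of all genes with no 0 were lowest, and highest in empty vector 5, against 44.2%. These shares describe the same 3 libraries in which DDIT4 and SESN2 were lowest in empty vector 3 and highest in empty vector 5. For overexpression against empty vector 0 of the 8 were called, where 0.914% of all genes were. An unadjusted p below 0.05 was found for 3, where 11.5% of all genes had one. The median log2 fold change of the 8 was 1.10 against 0.09 over all genes. DDIT3 was not tested and is not in that median. It was listed at 0 in 4 libraries, including both overexpression libraries, and at 69.9 in the remaining empty vector library. TRIB3 was nearest (log2 fold change 1.17, limma adjusted p = 0.364), while ATF4 itself had means of 339 ± 65.2 (SD, n = 3) and 344 ± 21.0 (SD, n = 2).

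Of the 70 further pathway genes, 61 were tested in the overexpression table. None was called by limma, where 0.914% of all genes were, and 6 had an unadjusted p below 0.05, where 11.5% of all genes had one. Their median log2 fold change was 0.15, against 0.09 over all genes tested. Over the 49 with no 0 in the table it was 0.044, against 0.071 over all genes with no 0. The count was 1 without empty vector 3 and 2 without empty vector 5. EIF4EBP1 stood at 94.2 ± 11.1 in empty vector (SD, n = 3) and at 151 ± 18.1 in overexpression (SD, n = 2), a log2 fold change of 0.68 that did not pass (limma adjusted p = 0.312). MTOR had a log2 fold change of -0.15 (0.725) and RHEB one of 0.66 (0.428), with limma adjusted p in brackets. Of the p53 targets 0 of 10 were called. Of the FOXO factors and targets 0 of 12 were called, with CITED2 nearest (log2 fold change 0.93, limma adjusted p = 0.0903). The description letters of the overexpression and empty vector libraries differ with the group and are not explained, so what they stand for cannot be told apart from the overexpression.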

How the data were processed

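RNA was sequenced in 11 ARP1 libraries. Each table was deposited by the authors as normalised abundances per gene, treated here as FPKM. No unit stands in their headers, so RPKM or TPM is also possible. The submitters' processing notes name TopHat, an aligner, and the hg19 build. The p-values deposited by the authors are quoted only where they are named as such, and no source used here gives their test. The knockdown values are rounded to 2 decimals. A gene entered when it reached a value of 1 in as many libraries as the smaller group has, and was tested within their own table with limma 3.58.1 (trend, robust variances, R 4.3.3) on log2(value + 1), two-sided. Adjusted p-values (Benjamini-Hochberg, whole table) were called below 0.05. Fold changes share that log scale, which understates the change of low genes. Tables, promoter searches and figures used Python 3.11.15, pandas 2.3.3, numpy 2.4.6 and matplotlib 3.10.9. The fits were also run on simulated data with known changes. Recovery was required only where every gene had the same spread, unlike the real genes. The members and gene lists were chosen with earlier results of these data known. Genes named beyond the members are PHF19, MTOR, RPTOR, RHEB, ATF4, TRIB3 and CDKN1A, those among the 3 smallest adjusted p of each list in each table, and the 3 profiles nearest to DDIT4 and to SESN2; TBC1D7 and others named under the block are those it called, PKD1 and ARMC2 overlap a member, the cell type markers named are from the marker lists, some of them singled out after their values were seen, and the widest genes among empty vector libraries were chosen after their values were seen. Deviations from the group means correlated at 0.341, 0.270 and 0.273 for scramble and shRNA libraries of the same number, and at -0.277 to 0.0936 for different numbers. Centring within each group ties these values together, so the lower ones for different numbers are not a separate observation. The same-numbered pairs come from the labels' numbers and the data, and no label states a shared day or culture. Alternatives were other scalings, filters, pseudocounts and variance models, the replicate block and leaving out each library.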

Additional observations from a re-analysis of the deposited data

How the results depend on the processing

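Over 8 alternatives of the fit, DDIT4 and SESN2 kept a log2 fold change of 2.18 to 2.28 and of 2.10 to 2.21 after knockdown and stayed called, but without each library in turn DDIT4 was called in 1 of 6 fits and SESN2 in 5 of 6. The number of members called after knockdown was 2 to 4 over these alternatives and 0 to 2 without each library in turn. It was 0 without shRNA 2, and 1 without shRNA 1, shRNA 3, scramble 2 or scramble 3. No member was called after overexpression under any alternative. The other pathway genes called after knockdown numbered 0 with no filter on low values, 5 with the replicate block and 0 to 2 without each library. After overexpression they numbered 0 to 2 without each library. With the replicate block, knockdown calls were gained for TSC2 (log2 fold change 0.54) and PHF19 (-0.44), and the block changed no other member's call. For the overexpression comparison no such block was possible, because the empty vector and overexpression libraries share no replicate numbers. Leaving out a library moved the SESN2 share difference over 25.4 to 36.7 points after knockdown and 13.8 to 20.9 after overexpression. Leaving out a library turned the sign of SESN1 after knockdown (-0.013 to 0.47). After overexpression it turned the sign of DDIT4 (-0.78 to 1.10), SESN1 (-0.39 to 0.098), TSC2 (-0.11 to 0.036), DEPTOR (-0.44 to 0.16), CASTOR1 (-0.20 to 0.47), NPRL2 (-0.11 to 0.11) and DEPDC5 (-0.18 to 0.38). Quantile normalisation turned CASTOR1 (-0.045) and DEPDC5 (-0.044) after overexpression, and moved the median of all genes there by -0.13. The cause was not tested. Fewer libraries leave fewer residual degrees of freedom, and a lone overexpression library is assumed to vary like the controls. The filter at 5 leaves out CASTOR1 and DEPDC5.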

Other observations

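Among the 12 genes with the widest range over the empty vector libraries, with no 0 in the table, several others followed the order of DDIT4. PFKFB4, a regulator of glycolysis, stood at 1.42, 6.25 and 22.5 units in empty vector 3, 4 and 5 and at 18.5 and 17.3 in overexpression libraries. P4HA1, a collagen prolyl hydroxylase, stood at 12.8, 23.2 and 102 and at 77.7 and 78.4. INHBE, an inhibin subunit, stood at 2.80, 11.3 and 26.9 and at 15.8 and 16.4. ERN1, the endoplasmic reticulum stress sensor IRE1, stood at 6.30, 10.9 and 50.1 and at 26.6 and 24.5. Each of these 4 was lowest in empty vector 3 and highest in empty vector 5, with both overexpression libraries between them. The same held for ZNF251 (1.17, 2.74 and 29.9, and 2.69 and 2.49) and CCNG2 (1.23, 3.24 and 17.1, and 4.22 and 8.53). LOC729737 kept the empty vector order, but both overexpression libraries lay below it. KIF27, TRIM69 and SAP18 did not follow the order. TXNIP, a thioredoxin inhibitor, was highest in empty vector 5 as well (128, against 14.0 and 11.3 in empty vector 3 and 4). These genes were chosen after their values were seen.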
